A study of Oryza sativa Japonica Group with 12 samples.

Results

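*OsSCR1* (LOC4349638), *OsSHR1* (LOC4343753) and the Magpie-like zinc finger gene LOC4327694 are 3 of the 24160 genes that were measured here by a probe set assigned to 1 gene. They are the rice relatives of 3 transcription factors that work together in the Arabidopsis root, and they were picked because the study and an earlier look at these same arrays had found them high in early crown root (CR) primordia relative to stem cortex. Each has 1 probe set, and all 3 probe sets gave a value on all 12 arrays. The tissue was taken from stem bases of wild type rice seedlings, *Oryza sativa* ssp. Japonica cv. Taichung 65, 8 days after sowing, with no treatment or mutation in any group. At that age the stem base holds 3 rings of CR primordia before emergence, which were named early, intermediate and late from the top of the stem base downwards, and laser capture microdissection was used to cut the primordia of each ring and stem cortex from the same fixed sections. RNA of 2 stem bases was pooled for each replicate, which gave 3 replicates of early primordia, intermediate primordia, late primordia and cortex from 6 stem bases in all, and the few nanograms obtained were amplified before hybridization. Every replicate is thus a mix of primordia from a pair of plants, and a primordium is a mix of cell layers, so that fewer cells with a transcript and less of the transcript per cell cannot be told apart.

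In Arabidopsis, SHORT-ROOT (SHR) is a GRAS family transcription factor made in the stele that moves into the adjacent cell layer, where it binds SCARECROW (SCR), another GRAS protein, and is held in the nucleus. Together they activate *SCR* itself, the gene of the zinc finger protein Magpie and a D-type cyclin gene, and they drive the asymmetric division that separates endodermis from cortex and maintain the quiescent centre of the root meristem. Magpie belongs to the INDETERMINATE DOMAIN (IDD) family of C2H2 zinc fingers, whose members bind SHR and SCR and serve as their partners on DNA. The name of LOC4327694 rests on similarity to Arabidopsis Magpie in the annotation of the study.

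The values below are the deposited log2 signals, so that a difference of 1 is a doubling, and a level of one gene cannot be set against that of another. Over all genes, the brightest signals were less bright in cortex: the 98th percentile lay between 6.94 and 7.22 on the 9 primordium arrays, against 6.25 to 6.80 on the cortex arrays. The tissue labels were checked with marker genes. Averaged over 6 genes of green tissue, chlorophyll a/b binding proteins and the small subunit of Rubisco, the log2 level lay between 2.32 and 2.57 on the primordium arrays, against 3.68 to 4.68 on the cortex arrays. All 6 had a lower mean in each of the 3 stages, as had 54.9%, 53.6% and 52.8% of all probe sets in early, intermediate and late primordia. Of the 6, 3, 4 and 3 passed (limma adjusted p under 0.05 and a change of at least 1.5-fold), beside 2.65%, 5.72% and 3.25% of all probe sets. Averaged over 10 genes of dividing cells, A and B type cyclins and PCNA, the log2 level lay between 4.26 and 4.38 in early, 4.11 and 4.50 in intermediate and 3.73 and 4.27 on the late arrays, against 3.51 to 3.79 in cortex. In these stages 9, 9 and 8 of the 10 had a higher mean than in cortex, beside 45.1%, 46.4% and 47.2% of all probe sets, but only 0, 1 and 0 passed. A list of 3 vessel genes, the secondary wall cellulose synthases *CESA4*, *CESA7* and *CESA9*, averaged 2.59 to 2.77 on the primordium arrays and 2.72 to 3.31 on the cortex arrays. All 3 had a lower mean than cortex in each stage, but 0 passed. Whether the cortex samples held vessel tissue was not tested. The part of these shifts in the levels of *OsSCR1*, *OsSHR1* and LOC4327694 was not tested.

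All 3 genes had their highest mean in early primordia and their lowest in cortex, but they were lower at different stages. *OsSCR1* had a log2 signal higher by 1.58 in early primordia than in cortex, and its intermediate, late and cortex means were all dim. *OsSHR1* was 2.49 times as high in early primordia, lay between in intermediate primordia and had a mean close to that of cortex in late primordia. LOC4327694 was 9.83 times as high in early primordia as in cortex and had a mean well above cortex in all 3 stages, 6.99 times as high in intermediate primordia and 4.15 times in late primordia. Whether the 3 genes differ from each other in this timing was not tested.

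**Figure D1:**
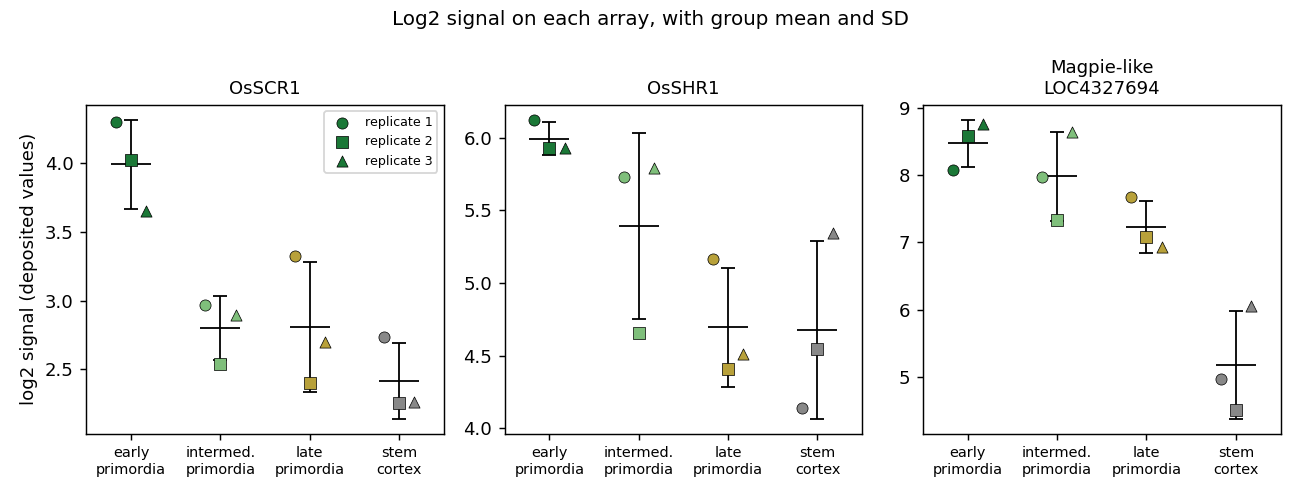
Log2 signal of OsSCR1, OsSHR1 and the Magpie-like gene LOC4327694 on each of the 12 arrays, by group, with the replicate number as the symbol and the group mean ± SD (n = 3) as bars. On the arrays of early primordia each gene lies above all its cortex values, and only LOC4327694 stays above cortex on all arrays of the intermediate and late stages.

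*OsSCR1*, which encodes the rice SCARECROW protein, had values clear of those of cortex in the early stage. Its log2 level was 4.30, 4.03 and 3.65 on the early arrays, 2.97, 2.54 and 2.89 on the intermediate arrays and 3.32, 2.40 and 2.70 on the late arrays, against 2.73, 2.25 and 2.26 on the cortex arrays. The early values all lay above the 9 others, whereas intermediate and late values overlapped with each other and with cortex. The group means were 3.99 ± 0.33, 2.80 ± 0.23 and 2.81 ± 0.47 in early, intermediate and late primordia and 2.41 ± 0.28 in cortex (SD, n = 3 each). The median probe set of a cortex array had a log2 level between 2.90 and 3.00, so that all 3 cortex values of *OsSCR1* lay below it, in the range where a microarray does not separate a low level from none. The same limit holds for the intermediate and late means, as the median probe set lay between 2.86 and 2.90 on the intermediate and between 2.86 and 2.92 on the late arrays. No detection calls were at hand, so the differences of *OsSCR1* are those of the measured signals and no fold change is given for them. The measured difference from cortex was 1.58 in early primordia (standard error 0.26, 95% interval 1.01 to 2.14). It was 0.38 in intermediate primordia (interval -0.18 to 0.95) and 0.39 in late primordia (interval -0.17 to 0.96). These differences are given without a test, because the gene was chosen from the comparison with cortex. Cortex replicate 1 had the highest of the 3 cortex values, and set against that array alone the intermediate difference was 0.065 and the early difference 1.26.

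*OsSHR1*, which encodes the rice SHORT-ROOT protein, varied little between early replicates and much in cortex. Its log2 level was 6.12, 5.93 and 5.93 on the early arrays, 5.73, 4.66 and 5.79 on the intermediate arrays and 5.17, 4.41 and 4.51 on the late arrays, against 4.14, 4.55 and 5.35 on the cortex arrays. The 3 early values again lay above all others. Of the intermediate values, those of replicates 1 and 3 lay above cortex and that of replicate 2 lay among the cortex values, and the late values lay within the range of cortex. Group means were 5.99 ± 0.11, 5.39 ± 0.64 and 4.70 ± 0.41 in early, intermediate and late primordia and 4.68 ± 0.61 in cortex (SD, n = 3 each). The difference from cortex was 1.32 in early primordia (standard error 0.36, interval 0.52 to 2.11), the 431st highest, 0.71 in intermediate primordia (interval -0.081 to 1.51) and 0.018 in late primordia (interval -0.78 to 0.81). The late difference has no settled sign, since it ran between -0.49 and 0.44 when arrays were left out and was -0.31 after quantile normalization. Cortex replicate 1 was the lowest of the cortex arrays for this gene and the highest for *OsSCR1*.

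LOC4327694, the Magpie-like gene, had the strongest contrast with cortex. Its log2 level was 8.08, 8.58 and 8.76 on the early arrays, 7.96, 7.33 and 8.65 on the intermediate arrays and 7.67, 7.09 and 6.93 on the late arrays, against 4.97, 4.50 and 6.06 on the cortex arrays. Every primordium array lay above every cortex array, early and late values did not overlap, and the intermediate values spanned from the late to the early range. Group means were 8.47 ± 0.35, 7.98 ± 0.66 and 7.23 ± 0.39 in early, intermediate and late primordia and 5.18 ± 0.80 in cortex (SD, n = 3 each). The difference from cortex was 3.30 in early primordia (interval 2.36 to 4.23), 2.81 in intermediate primordia (interval 1.87 to 3.74) and 2.05 in late primordia (interval 1.12 to 2.99), with a standard error of 0.42. After quantile normalization the intermediate difference was 2.18, and without replicate 3 of all groups the late difference was 2.64. In the order of all probe sets from the highest difference down it stood 11th in early primordia, 25th in intermediate primordia and 90th in late primordia.

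That the 3 genes separate early primordia from cortex on every array follows from how they were chosen, and is to be read beside 12.4% of all probe sets that did so in the same direction. A separation in the same direction was found for LOC4327694 alone in intermediate primordia, where 16.1% of probe sets showed it, and for LOC4327694 alone in late primordia, where the share was 13.2%. At a limma adjusted p under 0.05 with a change of at least 1.5-fold, 1.7% of all probe sets were called higher in early primordia, 3.21% in intermediate primordia and 1.61% in late primordia.

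**Figure D2:**
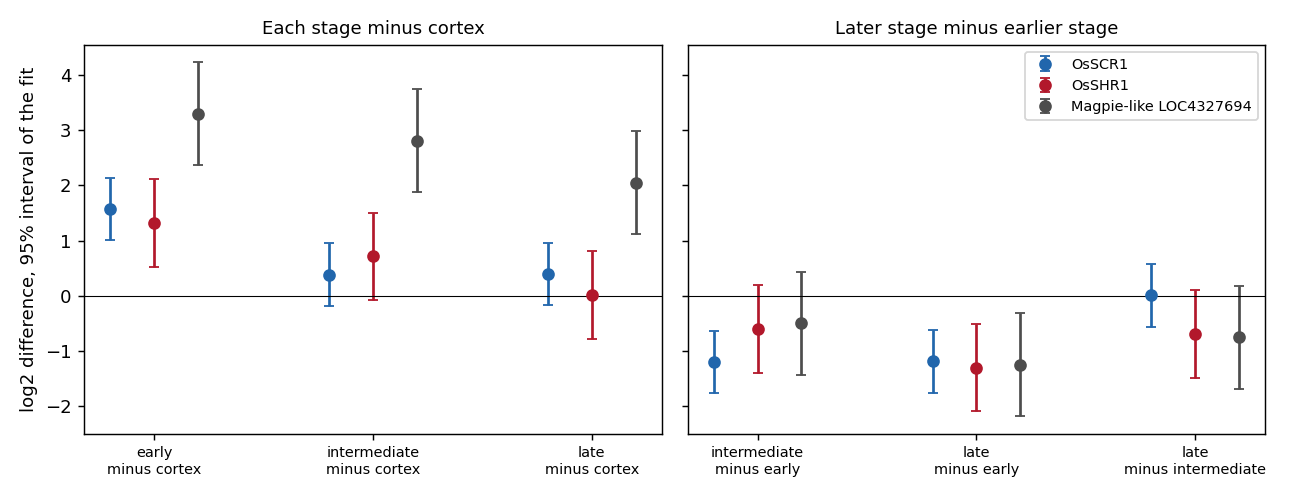
Log2 differences between groups for OsSCR1, OsSHR1 and LOC4327694, with the 95% interval of the limma fit, for each stage minus cortex on the left and for each later stage minus an earlier one on the right. The late minus early differences of the 3 genes lie close together, between -1.30 and -1.19, whereas intermediate minus early is -1.19 for OsSCR1, -0.60 for OsSHR1 and -0.49 for LOC4327694.

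Cortex and primordia were cut from the same sections of each pair of stem bases. Equal replicate numbers are taken here to mark the same pair, which the labels do not state. On that reading a difference can also be read within each pair. For *OsSCR1*, early minus cortex was 1.57, 1.78 and 1.39 in replicates 1, 2 and 3. For *OsSHR1* it was 1.98, 1.38 and 0.58, so that it was smallest in the pair whose cortex sample was highest. For LOC4327694 it was 3.11, 4.08 and 2.70. Intermediate minus cortex was positive in every pair for each gene, which for LOC4327694 follows from the lack of overlap with cortex. It was 0.23, 0.28 and 0.63 for *OsSCR1*, 1.59, 0.11 and 0.45 for *OsSHR1* and 3.00, 2.83 and 2.59 for LOC4327694. Late minus cortex was 0.59, 0.15 and 0.44 for *OsSCR1* and 2.70, 2.58 and 0.87 for LOC4327694, positive in 3 of 3 pairs for both genes. For LOC4327694 this sign again follows from the lack of overlap. For *OsSHR1* it was 1.02, -0.14 and -0.84, with a different sign in different pairs.

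The early values that enter the comparisons with the early stage are those from which the genes were chosen, so that a lower later stage is partly built into the choice, and these differences are a description more than a test. Between late and early primordia all 3 genes had lower values on every late array than on any early array, which was true of 7.5% of all probe sets. *OsSCR1* had a mean of 2.81 in late and 3.99 in early primordia, a difference of -1.19 in measured signal (95% interval -1.75 to -0.62), with the late mean below the median probe set of its arrays. For *OsSHR1* the means were 4.70 in late and 5.99 in early primordia, a difference of -1.30 (interval -2.09 to -0.50) or 2.46-fold lower. LOC4327694 averaged 7.23 in late and 8.47 in early primordia, a difference of -1.24 (interval -2.18 to -0.31) or 2.37-fold lower. None of them passed after adjustment over all probe sets in the limma fit, with adjusted p = 0.358, 0.544 and 0.656 for *OsSCR1*, *OsSHR1* and LOC4327694, in that order. No probe set at all was called between late and early primordia, 0% of those tested, while 1499 had an unadjusted p under 0.05, which is 6.2% of the probe sets. With array weights 14 were called, and 7 when only these 6 arrays were fitted. Within replicate pairs the difference ran from -1.63 to -0.95 for *OsSCR1*, from -1.52 to -0.96 for *OsSHR1* and from -1.83 to -0.41 for LOC4327694. The negative sign in every pair follows from the lack of overlap between the 2 stages and would hold for any pairing.

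Between intermediate and early primordia *OsSCR1* had a mean of 2.80 in intermediate and 3.99 in early primordia, a difference of -1.19 in measured signal (interval -1.76 to -0.63, adjusted p = 0.999), with the intermediate mean below the median probe set of its arrays. *OsSHR1* had a difference of -0.60 (interval -1.40 to 0.19, adjusted p = 0.999) and LOC4327694 one of -0.49 (interval -1.42 to 0.44, adjusted p = 0.999). For *OsSCR1* and *OsSHR1* every intermediate array lay below every early array, which 5.84% of probe sets did, and for LOC4327694 the stages overlapped. Here too no probe set was called by limma, 0% of those tested, and 758 (3.14%) had an unadjusted p under 0.05. Within pairs the *OsSCR1* difference was -1.33, -1.49 and -0.76. For the others it was largest in replicate 2, at -1.27 for *OsSHR1* and -1.25 for LOC4327694, against -0.40 and -0.13 for *OsSHR1* and -0.11 in both other pairs for LOC4327694.

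The comparison of late with intermediate primordia holds none of the arrays of the early stage or of cortex. *OsSCR1* averaged 2.81 in late and 2.80 in intermediate primordia, a difference of 0.0078 with an interval of -0.56 to 0.57 and no settled sign, as leaving out arrays moved it between -0.25 and 0.21. *OsSHR1* had a difference of -0.70 (interval -1.49 to 0.098) and LOC4327694 one of -0.75 (interval -1.68 to 0.18). The adjusted p was 1.00 for each, the 2 stages overlapped for each gene, and no probe set was called by limma, 0% of those tested, with 598 (2.48%) at an unadjusted p under 0.05. These intervals do not show that the levels were alike.

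**Figure D3:**
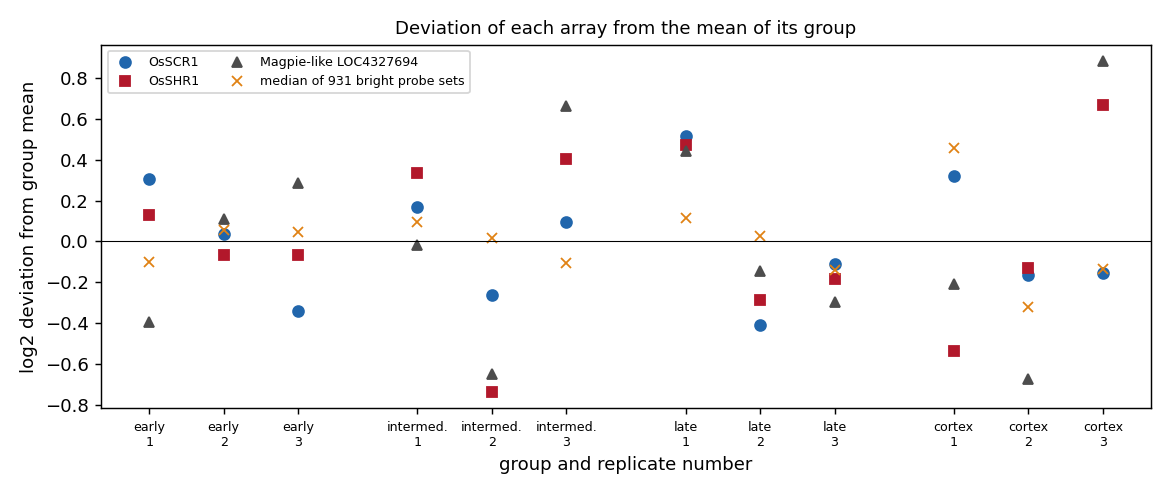
Deviation of each array from the mean of its group, in log2 units, for OsSCR1, OsSHR1 and LOC4327694 and, as crosses, the median deviation of the 931 probe sets with a mean log2 level above 6. Intermediate replicate 2 is low and late replicate 1 high for all 3 genes, while cortex replicate 3 is high for OsSHR1 and LOC4327694 and not for OsSCR1.

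On some arrays the 3 genes deviated in the same direction from the mean of their group and on others in opposite directions. On intermediate replicate 2 the deviation from the group mean was -0.26 for *OsSCR1*, -0.74 for *OsSHR1* and -0.65 for LOC4327694, while the median of 931 bright probe sets deviated by 0.017 and the markers of dividing cells by -0.16. On late replicate 1 the deviations were 0.52, 0.47 and 0.44 for the same genes, beside 0.11 for the bright probe sets and 0.25 for the markers of dividing cells. In early primordia *OsSCR1* and LOC4327694 went opposite ways, with 0.31 and -0.39 on replicate 1 and -0.34 and 0.28 on replicate 3. On cortex replicate 1, where the bright probe sets deviated by 0.46, *OsSCR1* deviated by 0.32, *OsSHR1* by -0.54 and LOC4327694 by -0.21. On cortex replicate 3 *OsSHR1* deviated by 0.67 and LOC4327694 by 0.88, but *OsSCR1* by -0.16. That cortex array deviated by -0.14 in the bright probe sets, by 0.15 in the markers of dividing cells and by -0.43 in those of green tissue, and whether some primordium tissue was cut with it was not tested. Over the 9 primordium arrays Pearson's r was 0.91 between *OsSHR1* and LOC4327694, 0.82 between *OsSCR1* and *OsSHR1* and 0.65 between *OsSCR1* and LOC4327694. Among the 24160 other probe sets, LOC4327694 ranked 57th in likeness to *OsSHR1*, and *OsSHR1* 55th in likeness to LOC4327694. *OsSHR1* ranked 234th for *OsSCR1* and *OsSCR1* 330th for *OsSHR1*, whereas LOC4327694 ranked 1397th for *OsSCR1* and *OsSCR1* 1347th for LOC4327694. With the cortex arrays added the 3 correlations were 0.77, 0.74 and 0.67 over 12 arrays. Over those, LOC4327694 ranked 226th for *OsSHR1* and *OsSHR1* 807th for LOC4327694, *OsSHR1* 217th for *OsSCR1* and *OsSCR1* 301st for *OsSHR1*, and LOC4327694 534th for *OsSCR1* and *OsSCR1* 1819th for LOC4327694. These values describe arrays that share stages and pairs of plants, and the genes were chosen for a common pattern.

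Other genes of the same families were read against cortex. *OsSHR2* (LOC9269685), the other rice gene annotated as a SHORT-ROOT, had a log2 level of 3.45, 2.87 and 2.86 on the early arrays, 2.66, 2.93 and 2.65 on the intermediate arrays and 2.87, 3.15 and 3.16 on the late arrays, against 2.67, 3.89 and 3.14 on the cortex arrays. The groups overlapped, and its differences from cortex were -0.18, -0.49 and -0.17 in early, intermediate and late primordia (adjusted p = 0.749, 0.267 and 0.723). Its means were 3.06, 2.75 and 3.06 in these stages and 3.23 in cortex. The intermediate mean lay below the median probe set of its arrays, so the limit given for *OsSCR1* holds for it. *OsSCR2*, the close duplicate of *OsSCR1*, was not analysed here, as no probe set is assigned to it alone, and whether its transcripts reach the probe set of *OsSCR1* was not tested. Beside *OsSCR1* and *OsSHR1*, 6 GRAS genes were found by name in the annotation, and 5 of these had a probe set. GRAS genes without such a name were not looked at, so the 5 do not stand for the whole family. Of them 0 passed in any stage against cortex, beside 2.65% of all probe sets called in either direction in early primordia, 5.72% in intermediate primordia and 3.25% in late primordia. At an unadjusted p under 0.05 there was 1 of 5 in each stage, beside 21.1%, 28.3% and 24.5% of all probe sets in early, intermediate and late primordia. This was *SLR1*, the DELLA repressor of gibberellin response. Its log2 level was 4.40, 4.16 and 4.50 on the early arrays, 4.23, 4.27 and 4.56 on the intermediate arrays and 4.33, 4.69 and 4.18 on the late arrays, against 4.93, 5.09 and 4.81 on the cortex arrays, below cortex on every primordium array, and with each stage taken alone 11.6%, 15.4% and 14.2% of all probe sets lay below cortex on every array of that stage. Its differences were -0.59, -0.59 and -0.54 (adjusted p = 0.0769, 0.0552 and 0.0854). After a further quantile normalization 1 GRAS gene passed in early and in intermediate primordia. The median difference of the 5 genes was -0.042, -0.14 and -0.17, against -0.032, -0.030 and -0.022 over all probe sets. The other 3 are the scarecrow-like gene *SCL7* and the chitin-inducible gibberellin-responsive genes *CIGR1* and *CIGR2*, whose differences lay between -0.34 and 0.30. The intermediate, late and cortex means of *SCL7*, from 2.67 to 2.74, also lay below the median probe set of those arrays. *RID1*, an IDD zinc finger gene known in rice for the switch to flowering and the only other one named as such here, differed from cortex by -0.14, -0.082 and -0.038 (adjusted p = 0.847, 0.896 and 0.955).

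Further genes of the pathway were looked up as a list of 18, namely 10 D-type cyclins, which carry the target of SHR and SCR in Arabidopsis, the retinoblastoma-related genes *RBR1* and *RBR2*, whose product binds SCR there, the quiescent centre gene *QHB*, *SLR1*, and the PLETHORA genes *OsPLT1*, *OsPLT3*, *OsPLT5* and *OsPLT6*, which keep the root stem cell niche. Against cortex 2 of 18 rose in early primordia, 4 in intermediate primordia and 1 in late primordia and 0 fell, beside 1.7%, 3.21% and 1.61% of all probe sets that rose, and each of those that rose is a PLETHORA gene, which the study had picked on these same arrays. *OsPLT1* rose by 1.17, 1.32 and 1.41 in the 3 stages (adjusted p = 0.0329, 0.0202 and 0.0197), and *OsPLT3* by 2.88 and 2.64 in early and intermediate primordia (adjusted p = 0.0299 and 0.0297), with a late difference of 1.91 (adjusted p = 0.0867). The cortex values of *OsPLT3* ran from 2.73 to 5.76 (SD 1.53). *OsPLT5* and *OsPLT6* rose in intermediate primordia by 1.07 and 1.32 in measured signal (adjusted p = 0.0492 and 0.0385). The cortex means of *OsPLT5* and *OsPLT6* lay below the median probe set of the cortex arrays, so the limit given for *OsSCR1* holds for them. The calls in the pathway list depend on single arrays. Leaving out arrays gave 0 to 3 in early primordia, 0 to 4 in intermediate primordia and 0 to 3 in late primordia. The count was 0 in each stage without cortex replicate 2. Among the 14 others 0 passed in any stage, with 13, 10 and 7 of them having a higher mean than in cortex.

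*CYCD6-1* carries the name of the Arabidopsis cyclin that SHR and SCR activate. Its log2 level was 3.45, 2.89 and 3.10 on the early arrays, 2.65, 2.29 and 2.77 on the intermediate arrays and 2.47, 2.38 and 2.79 on the late arrays, against 2.36, 2.32 and 2.89 on the cortex arrays. The early values lay above cortex only just, with the lowest early and the highest cortex value both at 2.89, and above all intermediate and late values. Of all probe sets, 12.4% lay above cortex on every early array. Taken alone, every intermediate array lay below every early array for 5.84% and every late array for 7.5%. The difference from cortex was 0.62 in early primordia (adjusted p = 0.127), 0.048 in intermediate primordia (adjusted p = 0.896) and 0.028 in late primordia (adjusted p = 0.946), so it passed in none. Its means of 2.57, 2.55 and 2.52 in intermediate primordia, late primordia and cortex lay below the median probe set of those arrays. The limit given for the dim values of *OsSCR1* holds for them too. *CYCD4-1* came nearest to passing among the D-type cyclins, at 0.54 in intermediate primordia (adjusted p = 0.0518). All 10 D-type cyclins had a higher mean in early primordia than in cortex, with differences from 0.099 to 0.62, and 8 of 10 did in intermediate primordia and 7 of 10 in late primordia, but 0 of 10 passed. The cortex means of *CYCD2-1*, *CYCD2-2*, *CYCD3-2*, *CYCD4-1* and *CYCD5-2*, from 2.40 to 2.89, also lay below the median probe set of the cortex arrays. Those of *CYCD3-1*, *CYCD4-2*, *CYCD5-1* and *CYCD5-3* lay above it, from 3.22 to 3.62. Of all probe sets 45.1%, 46.4% and 47.2% had a higher mean than in cortex in early, intermediate and late primordia.

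*QHB*, the rice relative of the Arabidopsis quiescent centre gene WOX5, had a log2 level of 4.81, 4.44 and 4.36 on the early arrays, 4.40, 3.73 and 4.51 on the intermediate arrays and 3.79, 3.76 and 3.66 on the late arrays, against 4.03, 4.06 and 4.44 on the cortex arrays. Its late values lay below all early and all cortex values, which 7.5% and 14.2% of all probe sets did for early primordia and cortex taken alone. The difference was -0.80 for late minus early primordia (unadjusted p = 0.00318, adjusted p = 0.482) and 0.36 for early primordia minus cortex (adjusted p = 0.354). *RBR1* differed from cortex by 0.32, 0.40 and -0.085 in early, intermediate and late primordia (adjusted p = 0.300, 0.143 and 0.777). Between stages 0 of the 18 passed in any of the 3 comparisons, beside 0% of all probe sets in each. Late minus early was negative for 14 of 18, with a median of -0.21, against -0.0022 over all probe sets, and 5 of 18 had an unadjusted p under 0.05, beside 50.6% negative and 6.2% under 0.05 among all probe sets. Of the 4 PLETHORA genes, which the study had picked on these arrays, 3 were negative, and of the other list genes 11 of 14.

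**Figure D4:**
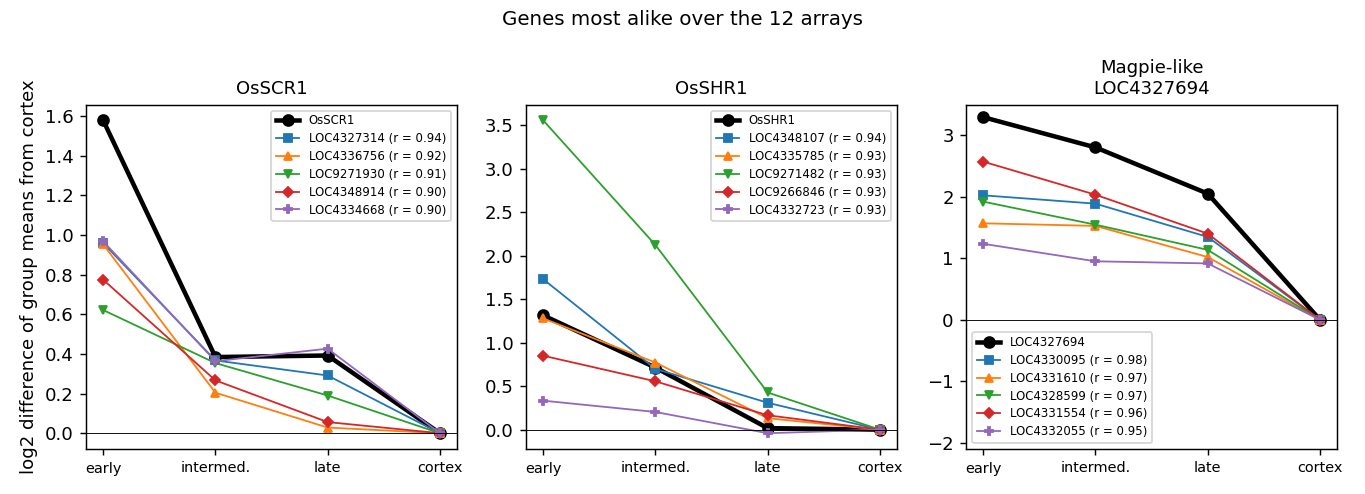
Group means relative to cortex, in log2 units, for each of the 3 genes (black) and the 5 genes with the highest Pearson's r to it over the 12 arrays. All 15 genes have their highest mean in early primordia, as follows from choosing them for likeness, and those most like LOC4327694 lie above cortex in all 3 stages.

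The genes whose level followed each of the 3 most closely over the 12 arrays differed from one to the next. Those most like *OsSCR1* had r between 0.90 and 0.94, and were LOC4327314, which the annotation of the study likens to a calmodulin-binding IQ-domain protein, the fringe-related LOC4336756, LOC9271930, *LOGL10* (LOC4348914), named after the cytokinin-activating enzyme LONELY GUY, and LOC4334668. The mean of LOC4327314 was 3.83, 3.24 and 3.17 in early, intermediate and late primordia and 2.88 in cortex.

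Those most like *OsSHR1* had r between 0.93 and 0.94. The first was LOC4348107, annotated in the study as similar to auxin transporters, with means of 5.02, 3.99 and 3.60 in early, intermediate and late primordia and 3.29 in cortex. It was followed by LOC4335785, similar to glutaredoxins, LOC9271482, LOC9266846 and the CCCH zinc finger gene *OsC3H23*. LOC9271482 spanned 5.06 log2 units over the 12 arrays, with means of 8.35, 6.91 and 5.22 in early, intermediate and late primordia and 4.79 in cortex.

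Those most like LOC4327694 had r between 0.95 and 0.98, and were LOC4330095, *CKS1* (LOC4331610), a subunit of cyclin-dependent kinases, the CCCH zinc finger gene *OsC3H14* (LOC4328599), *KRP5* (LOC4331554), an inhibitor of cyclin-dependent kinases, and LOC4332055, annotated in the study as similar to the proteasome subunit RPN9. *KRP5* had means of 7.63, 7.09 and 6.45 in early, intermediate and late primordia and 5.05 in cortex, and *CKS1* of 7.20, 7.16 and 6.65 in the 3 stages and 5.63 in cortex. With 12 arrays in 4 groups and 24160 genes to choose from, high correlations arise for any gene that separates the same groups, and they are given as a description.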

How the data were processed

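Log2 signals of 36643 probe sets on 12 GeneAtlas rice arrays were used as deposited. The authors normalized them with Robust Multi-array Average according to their methods, whereas the submitters' processing notes name GCRMA and Affymetrix Expression Console. Which of these made the deposited log2 values is not settled. No scanner files or detection calls were used here. A probe set was tested if the platform annotation gave it exactly 1 gene, which left 24161; 12392 had no gene and 90 several. Gene symbols come from RefSeq.

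The members and gene lists were chosen with earlier results of these data known. Groups were compared in R 4.3.3 with limma 3.58.1, with 1 mean per group, all 12 arrays in 1 fit and Benjamini-Hochberg adjustment over the 24161 probe sets. A gene passed at an adjusted p under 0.05 and a change of 1.5-fold. The methods of the study used p under 0.01 and the same fold. Tested on simulated data for early minus cortex over 24161 probe sets, the fit recovered 67 of 100 changes of 1 log2 unit and 97 of 100 of 2. The simulated noise was independent between probe sets, without shifts of whole arrays, so these shares need not hold for the real arrays. The genes named are the 3 members, their annotated paralogues, list genes that passed and, for each member, the 5 probe sets with the highest Pearson's r over 12 and over 9 arrays, and further list genes were chosen after their values were seen, namely *SLR1*, *RID1*, *SCL7*, *CIGR1*, *CIGR2*, *CYCD6-1*, *CYCD4-1*, *QHB* and *RBR1*. *OsPLT2*, *OsPLT4*, *CRL1* and *CRL5* were not analysed here, and promoter motifs and protein identity were not examined.

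A replicate number was taken to mark the same pair of stem bases in all groups, which neither the labels nor the methods of the study state. The deviations of same-numbered arrays from their group means correlated by 0.051 on average over 18 pairs (range -0.31 to 0.35), and 7 of 18 were above 0.1. The main fit has no replicate block, as the methods name none, and a fit with it was an alternative. The other alternatives were quantile normalization, median centring, a filter on dim probe sets, an intensity trend, a robust prior, array weights, the 6 arrays compared alone, group medians, cortex replicate 1 alone and leaving out each array or replicate. Counts of the pathway list under these settings were added after the data had been seen. The number of arrays limits the precision.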

Additional observations from a re-analysis of the deposited data

How the results depend on the processing

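Apart from the late minus cortex difference of *OsSHR1* and the late minus intermediate difference of *OsSCR1*, every difference of the 3 genes kept its direction under all alternatives run. The adjusted p between stages was never under 0.154. The replicate block cannot change the differences of the 3 genes, as every group holds each replicate number once. In late minus early they were -1.19, -1.30 and -1.24 for *OsSCR1*, *OsSHR1* and LOC4327694 with and without it. Their standard errors went from 0.26, 0.36 and 0.42 to 0.17, 0.34 and 0.37 with the block. No call of theirs or of the listed family genes changed, while 3 instead of 4 pathway genes passed in intermediate primordia. The sizes of the differences moved with quantile normalization: LOC4327694 differed from cortex by 2.82, 2.18 and 1.48 in early, intermediate and late primordia, against 3.30, 2.81 and 2.05 in the main setting, and *OsSHR1* by 0.93 in early and 0.31 in intermediate primordia, against 1.32 and 0.71. Against cortex replicate 1 alone, *OsSCR1* differed by 1.26 in early and 0.065 in intermediate primordia, and *OsSHR1* by 1.85 in early and 0.55 in late primordia. The *OsSHR1* late minus cortex difference, 0.018, was -0.31 after quantile normalization and -0.037 with group medians, and leaving out arrays gave -0.49 to 0.44. The *OsSCR1* late minus intermediate difference, 0.0078, was -0.021 after quantile normalization and -0.0042 after median centring, and -0.25 to 0.21 with arrays left out. After quantile normalization 1 gene of the GRAS family passed in early and 1 in intermediate primordia, against 0 in the main setting.

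The number of genes called against cortex over all probe sets was far less stable. It was 641, 1382 and 785 in early, intermediate and late primordia, 0 in each without replicate 2 of all groups, and up to 2336, 3633 and 2971 without cortex replicate 1. Fitting only the 6 arrays compared gave 2, 2 and 1, and array weights gave 1338, 1798 and 1180. Quantile normalization gave 785 in intermediate and 481 in late primordia, and an intensity trend gave 494 in late primordia. The pathway list gave 0 in each stage with only the 6 arrays compared, and at most 3, 5 and 2 under the other settings that kept all arrays. The causes were not tested.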

Other observations

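The 2 genes on either side of each of *OsSCR1*, *OsSHR1* and LOC4327694 in the reference annotation were read as well. Of these 12 neighbours 0 passed against cortex in any stage. Of all probe sets, only 2.65%, 5.72% and 3.25% passed in early, intermediate and late primordia, so a count of 0 sets the neighbours apart from no other genes. Their early minus cortex differences lay between -0.54 and 1.11. The highest was LOC4343755 near *OsSHR1*, with means of 7.79 ± 0.23, 8.05 ± 0.28 and 7.87 ± 0.48 in early, intermediate and late primordia and 6.69 ± 1.18 in cortex (SD, n = 3 each), an early difference of 1.11 (limma adjusted p = 0.219).

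Within the 9 primordium arrays other genes came nearest. To LOC4327694 these were LOC4331514 (r = 0.99), the beta-expansin gene *EXPB4* (LOC4349350, r = 0.98), LOC4347630, LOC4337309 and LOC4331251. *EXPB4* had means of 4.57, 4.27 and 3.74 in early, intermediate and late primordia, beside 3.67 in cortex, and LOC4331514 had 5.01, 4.70 and 4.09, beside 5.46 in cortex, so that this gene was highest in cortex. To *OsSHR1* they were LOC4335785 (r = 0.98), which was also among its 5 nearest over 12 arrays, LOC4330267, LOC4350767, LOC4335784 and LOC4337981. LOC4350767, a gene with a DUF593 domain, had means of 6.83, 6.22 and 5.10 in early, intermediate and late primordia, beside 5.23 in cortex. To *OsSCR1* they were LOC4340415, LOC4348825, LOC4328036, LOC4338167 and LOC4327986, with r from 0.95 to 0.96, of which LOC4327986 had means of 4.72, 3.99 and 3.88, beside 4.64 in cortex. The other 4 spanned 0.34 to 0.45 log2 units over these arrays.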
